A study of Mus musculus with 2 samples.

Results

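The genes described here encode the machinery that copies DNA: factors that mark and license replication origins, the fork helicase, the polymerases and their accessory factors, the enzymes that supply nucleotides, the regulators of entry into S phase, and a small group of repair and checkpoint factors. They were chosen as a named list of 54 genes, with no use of the measured values in the rule itself. Earlier results of these data were known when the list was chosen. Of these, 52 were measured by a named probe set, out of 19505 named genes in all, and each of the 52 had a single probe set. Orc5 and Mcm7 were not analysed here. Expression was compared between B16F10 cells, a mouse melanoma line, carrying a plasmid for NRF3 and B16F10 cells carrying a plasmid for GFP. NRF3, the product of Nfe2l3, is a membrane-anchored transcription factor and belongs to the cap'n'collar family. Each plasmid had been introduced together with a puromycin resistance vector and stable cells had been selected with puromycin, and the labels do not say whether they were clones or pools. Both populations had also received forskolin, an activator of adenylate cyclase, for 5 days, so there was no group without forskolin.

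Replication begins when the origin recognition complex binds DNA and, with CDC6 and CDT1, loads the ring-shaped MCM helicase onto it; geminin, the product of Gmnn, blocks CDT1 and so keeps each origin from being loaded again in the same cycle. At the start of S phase, CDC45 and the GINS complex join the MCM ring and turn it into an active helicase, after which primase, the replicative polymerases, the sliding clamp PCNA, its loader RFC and the single-strand binding complex RPA follow at the fork. Many of these genes are transcribed at the transition into S phase under E2F transcription factors, and their transcripts are abundant in cycling tumour cells.

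There was 1 array per group, so no difference below has an error, an interval or a p-value, and each compares these 2 RNA samples only. The values are log2 expression values on the deposited scale, and every difference is the NRF3 value minus the GFP value in log2 units. Nfe2l3 lay at 10.15 on the NRF3 array and 6.04 on the GFP array, and its GFP value is a dim one by the limits that follow. As background, the array holds 5222 rows that appear from their names to be negative controls, with upper quartiles of 7.85 on the NRF3 array and 7.52 on the GFP array. A value below that limit on its array is called dim here, and its difference may depend on background. Another 23 background control rows named for a GC content reached at most 8.16 and 7.11. All 10 melanocyte lineage markers were detected, against 0 of 6 leukocyte, 1 of 7 fibroblast and endothelial, and 0 of 6 epithelial markers. Of the 10 melanocyte markers, 4 were at least 1.5-fold higher in NRF3 cells and 0 were lower: Oca2 differed by 2.83, Tyr by 1.41, Mitf by 0.93 and Slc45a2 by 0.70. The part of this shift in the differences below was not tested. The reference genes Gapdh and Actb differed by -0.04 and -0.23, both at the top of the scale, where differences are narrower. Of 11 detected reference genes 0 differed by 1.5-fold, although Sdha, at -0.58, and Hprt, at 0.56, were just short of it.

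Replication genes were mostly lower in the NRF3 cells. By a rule of size of at least 1.5-fold, 27 of the 52 genes were lower and 3 were higher, or 51.9% and 5.77%. Over the 10162 genes detected, those whose brighter value reached 5.89, the median of all named values, 23.6% were lower and 17.0% were higher by the same rule. That floor lies below the medians of the negative control rows, 6.37 on the NRF3 array and 6.12 on the GFP array. Genes called detected can therefore lie at background, and they are not matched in level to the list. Over all 19505 named genes the shares were 16.3% and 15.0%. At 2-fold, 16 of the 52 were lower and 1 was higher, against 1122 (11.0%) and 686 (6.75%) of detected genes. The median difference of the 52 was -0.62, a 1.54-fold lower level in NRF3 cells, with quartiles of -1.10 and -0.17. The detected genes had a median of -0.07 and quartiles of -0.55 and 0.39. A value below 0 was found for 41 of the 52 genes, or 78.8%, against 54.2% of the detected genes. In RNA from a whole culture, a smaller share of cells in S phase and less RNA per cell cannot be told apart.

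The spread among the genes was wide, from -2.86 for E2f2 to 1.22 for Gins4, and 8 of the 12 roles spanned more than 1 log2 unit. The helicase, RPA and the S phase regulators were lower throughout or nearly so, whereas the origin recognition and GINS genes were not. All 52 genes met the detection floor, which is a low one and does not by itself show expression. In 8 of them at least 1 value was dim, and these are pointed out below. Of the 42 genes above every GC background row on both arrays, 21 were lower and 3 were higher. The shares among all genes above those rows were not counted. Gins1 and Pold1, though not dim, were not among the 42. Brca2, Fanca and Pold1 no longer met the 1.5-fold rule under any of 3 other scalings, nor did Ccne2 and Cdk2 under some of them. Prim1, Prim2 and Cdk2 no longer met it once the median of neighbouring genes was subtracted.

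**Figure D1:**
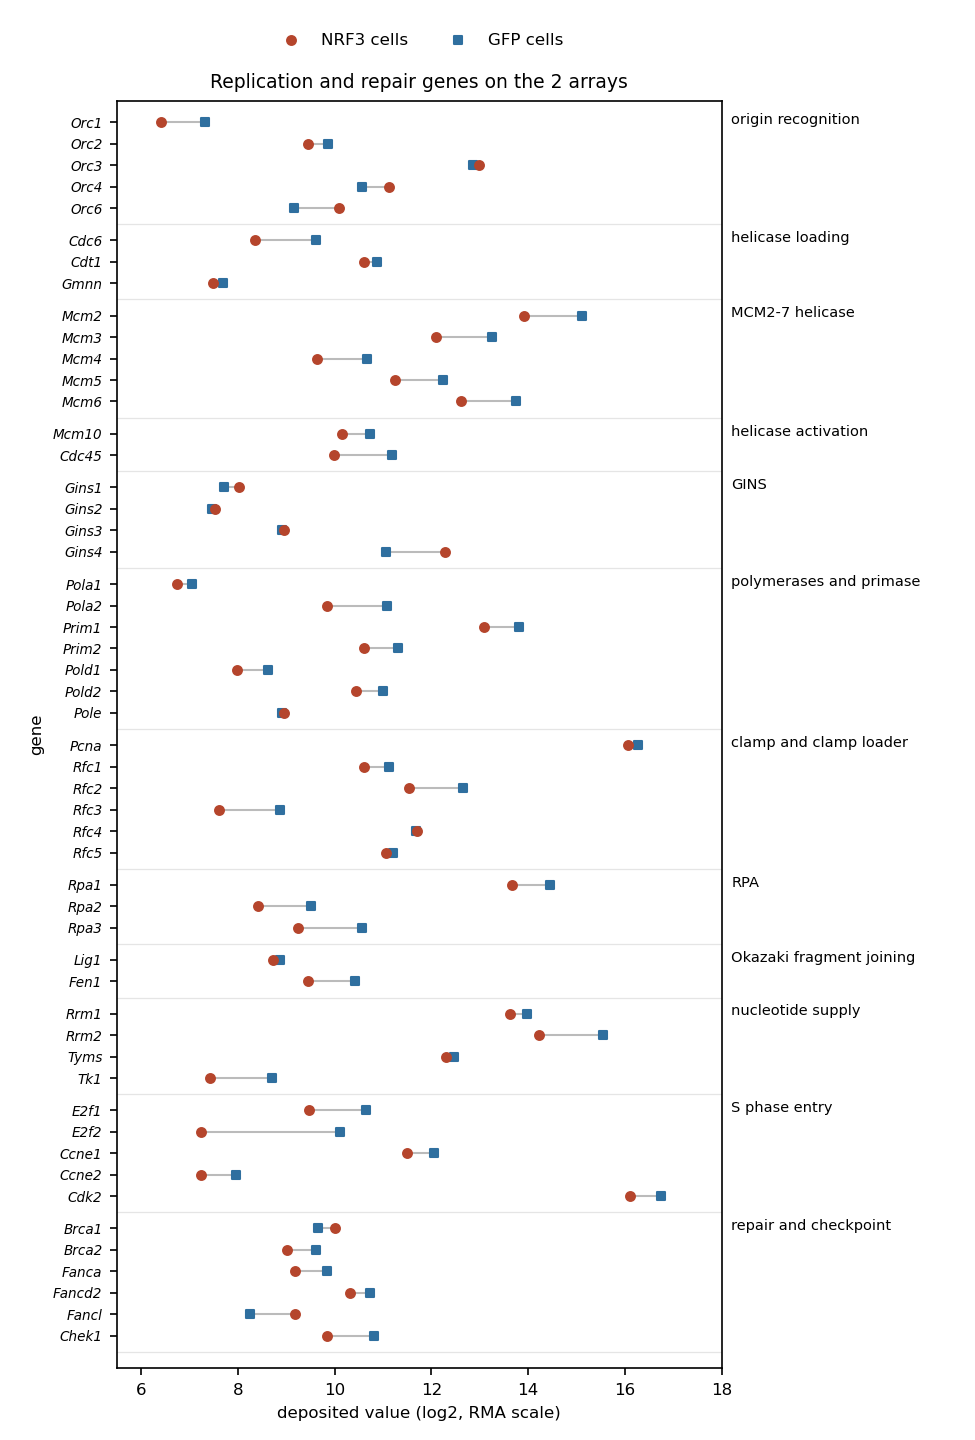
Deposited log2 values (x axis, RMA scale) of the 52 measured genes (rows, grouped by role) on the NRF3 array (circles) and the GFP array (squares), 1 array each. The NRF3 value lies left of the GFP value for 41 genes; levels of different genes come from different probe sets and are not comparable.

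On the deposited scale, the MCM ring itself gave the most uniform result of any group. Mcm2 had a log2 value of 13.92 in NRF3 cells and 15.11 in GFP cells, a 2.28-fold lower level. Mcm3 lay at 12.09 in NRF3 cells and 13.26 in GFP cells, and Mcm6 at 12.60 in NRF3 cells and 13.76 in GFP cells. These 3 products are subunits of the same ring, and the genes differed by -1.19, -1.16 and -1.15. Mcm4 lay at 9.63 in NRF3 cells and 10.68 in GFP cells, a difference of -1.05. Mcm5 lay at 11.24 in NRF3 cells and 12.25 in GFP cells, a difference of -1.01. All 5 measured subunits were thus at least 2-fold lower in NRF3 cells, with a median of -1.15, and their differences lay within 0.18 of each other and the genes lie on 4 chromosomes. After subtraction of chromosome medians the same genes ran from -1.57 to -0.65, a span of 0.92 that was wider than the 0.83 of the polymerase and primase genes, and after subtraction of neighbour medians they spanned 0.50. As deposited, the 5 origin recognition genes spanned 1.85 log2 units and the 4 GINS genes 1.18.

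The factors that put this ring onto DNA did not move as a block. Cdc6, whose product is an ATPase that loads the helicase, lay at 8.35 in NRF3 cells and 9.62 in GFP cells, 2.42-fold lower. Cdt1, the partner of CDC6 in loading, lay at 10.61 in NRF3 cells and 10.87 in GFP cells, a difference of -0.27. Gmnn, which encodes the inhibitor of CDT1, lay at 7.49 in NRF3 cells and 7.69 in GFP cells, a difference of -0.21, with a dim NRF3 value. On the deposited scale, Cdt1 and its inhibitor differed by less than 1.5-fold while Cdc6 was past 2-fold. Cdt1 lies on chromosome 8, and relative to the median of that chromosome it differed by -0.83 and met the 1.5-fold rule, with a median of the 3 genes of -0.83 on that scale, against -0.27 as deposited.

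Among the origin recognition genes, Orc1 was lower and Orc6 higher. Orc1, the subunit whose level varies through the cell cycle in mammalian cells, lay at 6.41 in NRF3 cells and 7.32 in GFP cells, both dim, a difference of -0.91. Orc6 lay at 10.10 in NRF3 cells and 9.16 in GFP cells, a difference of 0.94. The subunits in between were Orc2, at -0.41, Orc3, at 0.12, and Orc4, at 0.56, just short of the 1.5-fold rule. The median of the 5 was 0.12, so the complex that marks origins had no common direction.

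Of the factors that turn the loaded ring into a helicase, Cdc45 was lower and the GINS genes were not. Cdc45 lay at 9.98 in NRF3 cells and 11.19 in GFP cells, a difference of -1.20. Mcm10, which assists the start of unwinding and is not part of the ring, lay at 10.15 in NRF3 cells and 10.73 in GFP cells, and its difference of -0.58 missed the 1.5-fold rule narrowly. GINS is a complex of the products of Gins1 to Gins4. Gins4 lay at 12.29 in NRF3 cells and 11.07 in GFP cells, 2.34-fold higher and the highest difference of all 52 genes. Gins1 differed by 0.31, Gins2 by 0.07 and Gins3 by 0.05, and both values of Gins2 were dim. None of the 4 GINS genes was below 0 on the deposited scale, but 3 of them lie on chromosome 8, which is taken up further on.

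**Figure D2:**
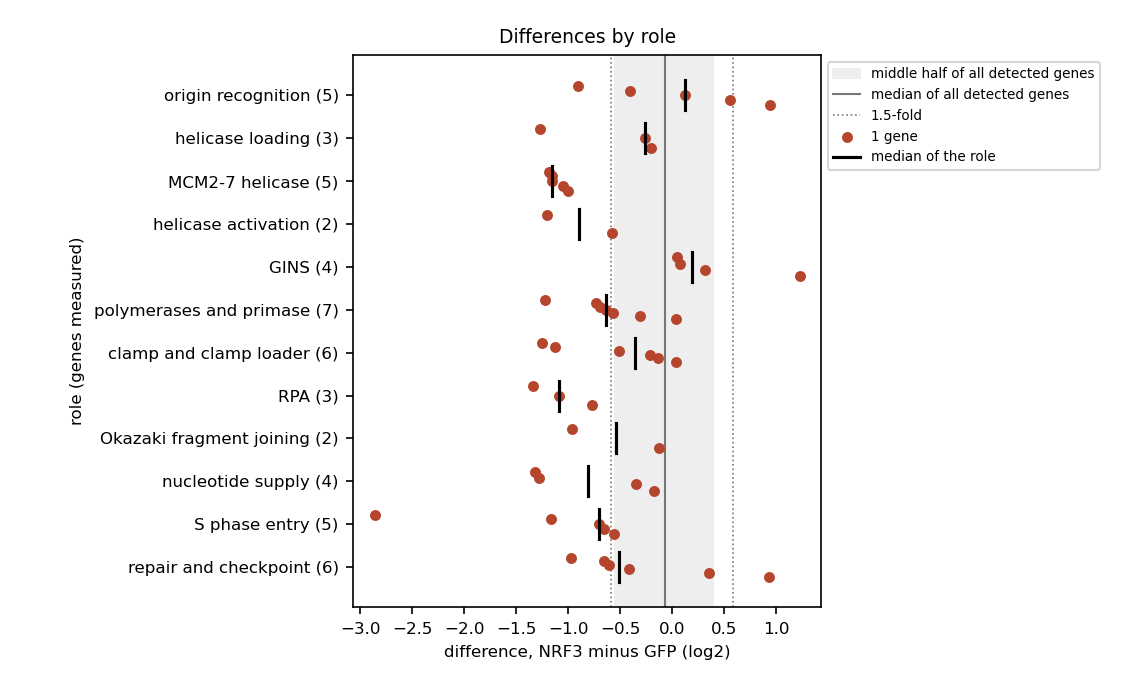
Difference between the arrays (x axis, log2, NRF3 minus GFP) for each of the 52 genes (points), by role (rows); black ticks mark role medians, the grey band the interquartile range of the 10162 detected genes (-0.55 to 0.39), the grey line their median, and the dotted lines 1.5-fold. The MCM helicase genes sit together between -1.19 and -1.01, while origin recognition and GINS medians lie above 0.

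Most of the polymerase and primase genes were lower as deposited, and Pole, of the leading-strand enzyme, was not. Pola2, the regulatory subunit of polymerase alpha, lay at 9.85 in NRF3 cells and 11.08 in GFP cells, 2.34-fold lower. The primase genes Prim1 and Prim2, whose products make the RNA primers, differed by -0.73 and -0.69, with Prim1 at 13.08 in NRF3 cells and 13.81 in GFP cells. Pold1, the catalytic subunit of polymerase delta, differed by -0.64 and its partner Pold2 by -0.57. Pole, the catalytic subunit of polymerase epsilon, lay at 8.94 in NRF3 cells and 8.91 in GFP cells. Pola1, the catalytic subunit of polymerase alpha, differed by -0.31, and both of its values were dim. In all, 4 of the 7 genes were at least 1.5-fold lower and 0 were higher, with a median of -0.64. After subtraction of chromosome medians or of neighbour medians, the median was -0.41, and Prim1 and Prim2 no longer met the rule. Pold1 no longer met it under the other scalings.

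The clamp loader was divided. Rfc2 lay at 11.53 in NRF3 cells and 12.66 in GFP cells, a difference of -1.13. Rfc3 lay at 7.62 in NRF3 cells and 8.88 in GFP cells, a difference of -1.26 with a dim NRF3 value. These small subunits were more than 2-fold lower, but the other small subunits of the same pentamer were not: Rfc4 lay at 11.71 in NRF3 cells and 11.68 in GFP cells, and Rfc5 at 11.07 in NRF3 cells and 11.21 in GFP cells. Rfc1, the large subunit, differed by -0.51. Pcna, the clamp they load, lay at 16.07 in NRF3 cells and 16.28 in GFP cells. Differences were narrower at the top of the scale: their interquartile range was 0.69 for the 165 genes whose mean passed 16 and 0.94 for the 9997 other detected genes. The small difference of Pcna, at -0.21, does not by itself show an equal level. The part of this narrower range in it was not tested.

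All 3 RPA genes, whose products coat single-stranded DNA as a trimer, were lower. Rpa3 lay at 9.24 in NRF3 cells and 10.57 in GFP cells, 2.52-fold lower, and Rpa2 at 8.42 in NRF3 cells and 9.51 in GFP cells, 2.12-fold lower. Rpa1, the large subunit, lay at 13.68 in NRF3 cells and 14.45 in GFP cells, 1.71-fold lower. Of the enzymes that finish the lagging strand, the flap endonuclease gene Fen1 differed by -0.96, with values of 9.45 in NRF3 cells and 10.41 in GFP cells. The DNA ligase gene Lig1 differed by -0.13.

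In nucleotide supply, the cell-cycle regulated subunit of ribonucleotide reductase was set apart from its partner on the deposited scale. Rrm2 lay at 14.23 in NRF3 cells and 15.55 in GFP cells, 2.49-fold lower. Rrm1, the large subunit, lay at 13.63 in NRF3 cells and 13.98 in GFP cells, a difference of -0.35. Relative to its neighbours Rrm1 differed by -0.68 and met the 1.5-fold rule too. Thymidylate can be made by salvage of thymidine or by synthesis, and the list holds a single gene of each route, which does not stand for the route. Tk1, the cytosolic thymidine kinase of salvage, lay at 7.43 in NRF3 cells and 8.71 in GFP cells, a difference of -1.28 with a dim NRF3 value. Tyms, thymidylate synthase, lay at 12.30 in NRF3 cells and 12.47 in GFP cells, a difference of -0.18.

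The regulators of S phase entry held the lowest value of the list. E2f2, an activating E2F factor, lay at 7.25 in NRF3 cells and 10.11 in GFP cells, a difference of -2.86. Its NRF3 value was dim, so the 7.27-fold size may depend on background. E2f1, the best known activator of the family, lay at 9.48 in NRF3 cells and 10.64 in GFP cells, 2.25-fold lower and above all GC background rows on both arrays. Ccne1 and Ccne2 encode the cyclins E that activate CDK2 at the entry into S phase. Ccne1 differed by -0.56, just short of the 1.5-fold rule, and Ccne2 by -0.71, with a dim NRF3 value of 7.25. Cdk2 lay at 16.10 in NRF3 cells and 16.76 in GFP cells, a difference of -0.65 in the same narrow range of the scale as Pcna. Its neighbour on the chromosome, the pigment gene Pmel, differed by 0.12. Of the 5 regulators, 4 were lower and 0 higher, with a median of -0.71.

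Repair and checkpoint genes went both ways. Chek1, the checkpoint kinase that acts downstream of ATR at stalled forks, lay at 9.84 in NRF3 cells and 10.81 in GFP cells, 1.96-fold lower. Brca1 and Brca2 act in homologous recombination and lay on opposite sides: Brca1 at 10.01 in NRF3 cells and 9.65 in GFP cells, Brca2 at 9.02 in NRF3 cells and 9.62 in GFP cells. Of the pair, Brca2, at -0.60, was past the 1.5-fold rule and Brca1, at 0.36, was not. The Fanconi anaemia pathway removes crosslinks between DNA strands, and its genes also lay apart from each other. Fancl, the ubiquitin ligase of the pathway, lay at 9.18 in NRF3 cells and 8.25 in GFP cells, 1.91-fold higher. Fancd2, the protein that FANCL modifies, differed by -0.41, and Fanca, of the upstream core complex, by -0.66. The 6 genes had a median of -0.51, with 3 lower and 1 higher.

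The differences were not centred alike on all chromosomes. Over detected genes, the median difference was -0.51 on chromosome 1 and 0.56 on chromosome 8. Among the other chromosomes the medians ran from -0.28 on chromosome 19 to 0.23 on chromosome 7. Chromosome 7 holds 4 genes of the list, and chromosome 5, with a median of 0.14, holds 7. On chromosome 8, 47.5% of detected genes were at least 1.5-fold higher and 9.29% lower, and on chromosome 1 5.98% were higher and 44.2% lower. The list has 7 genes on chromosome 8, Orc6, Cdt1, Mcm5, Gins2, Gins3, Gins4 and Fanca, and 4 on chromosome 1, Orc2, Mcm3, Mcm6 and Prim2. Of the 3 genes that were higher, Orc6 and Gins4 lie on chromosome 8 and Fancl on chromosome 11. The part of the chromosomes in these differences was not tested, since neither copy number nor a second pair of cultures was measured here.

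Relative to the median of the 50 nearest detected genes, Orc6 differed by 0.19 and no longer met the 1.5-fold rule, while Gins4 still differed by 0.60. On the same scale Gins2 differed by -0.57, Gins3 by -0.50 and Cdt1 by -0.72, so the median of the GINS genes was -0.04 on this scale and 0.19 on the deposited scale. Mcm5 and Fanca lay further below their neighbours than their own values, at -1.12 and -1.19. The chromosome 1 genes Mcm3 and Mcm6 lay at -0.80 and -0.62 relative to their neighbours, and Prim2 at -0.21, which no longer met the rule. Over the whole list, 28 genes were lower and 3 higher on this scale, and 24 of the 28 were among the 27 lower on the deposited scale. The genes lower only on this scale were Ccne1, Cdt1, Rfc1 and Rrm1, and Orc4 joined Gins4 and Fancl as higher. With chromosomes 1 and 8 left out, 22 of 41 genes were lower and 1 was higher, with a median of -0.64. The shares of all detected genes relative to their neighbours, or without those chromosomes, were not counted. The shares given above for all detected genes do not apply to these counts.

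**Figure D3:**
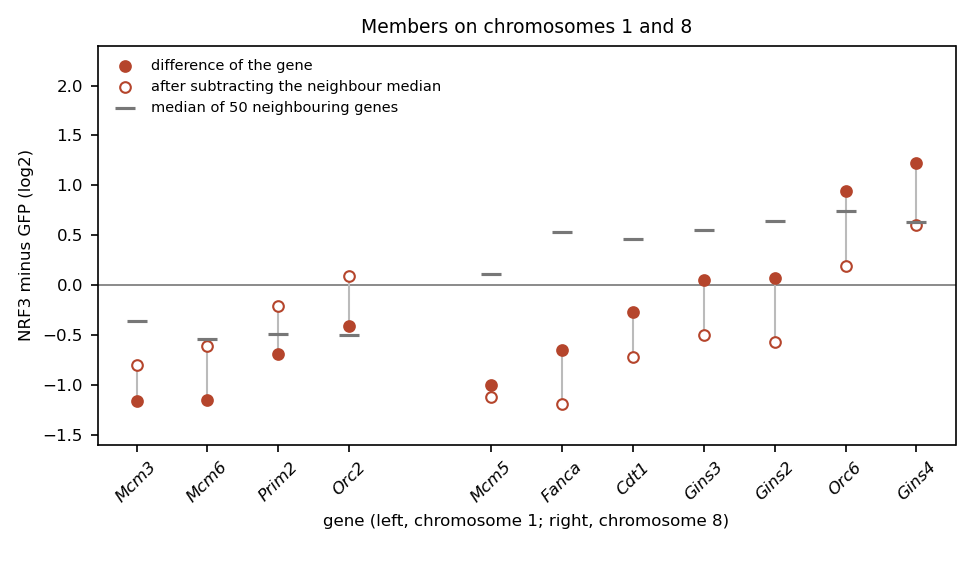
Differences (y axis, log2, NRF3 minus GFP) of the 11 genes on chromosome 1 (left) and chromosome 8 (right): filled circles as measured, open circles after subtracting the median of the 50 nearest detected genes, bars that median. Neighbour medians lie below 0 on chromosome 1 and above 0 on chromosome 8, and subtracting them moves Cdt1 further below 0 and brings Gins2 and Gins3, measured just above 0, below it.

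Many of the promoters carry letters that E2F factors are known to recognise. Promoters, from 250 bases before to 50 bases after each start, were taken from RefSeq (GRCm38.p6), and 53 promoters of 44 of the 54 genes matched by symbol. The E2F motif was searched as TTTCCCGC, TTTCGCGC, TTTGCCGC and TTTGGCGC on both strands, with overlapping matches counted. It was found in 16 of the 53 promoters, 30.2%, against 2.26% of all 32851 promoters in the table. By gene, 15 of the 42 measured genes with a promoter held it, 35.7%, against 4.88% of the 8387 detected genes with a promoter. The promoters of the list were no richer in G and C than those of detected genes, with medians of 57.7% and 60.7%. They were richer than all promoters in the table, which had a median of 52.7%. CCAAT was found in 56.6% of the list's promoters and 37.4% of all promoters. Cap'n'collar factors bind the antioxidant response element with small MAF partners. TGANNNNGC, a loose form of the core of that element, was found in 35.8% of the list's promoters and 41.3% of all. The cAMP response element TGACGTCA was found in 5.66% and 1.79%, and the cell cycle homology region, as TTTGAA or TTCGAA, in 15.1% and 19.2%. By gene, the cAMP response element was in 4.76% of measured genes of the list and 3.65% of detected genes. The cell cycle homology region was in 16.7% and 16.6%, CCAAT in 61.9% and 44.2%, and TGANNNNGC in 42.9% and 47.8%. None of these matches shows that a factor was bound.

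The windows below, each 120 bases long, lying upstream of the start and holding the E2F match, come from the 11 promoters with an E2F match wholly before the start, and show 5 genes that were lower and 2 that were not, so that the letters can be set beside the values. The lower genes are Mcm5 (chr8:75109302-75109421 on the plus strand), Mcm6 (chr1:128359721-128359840 on the minus strand), Cdc6 (chr11:98907957-98908076 on the plus strand), Orc1 (chr4:108579334-108579453 on the plus strand) and Rfc3 (chr5:151651209-151651328 on the minus strand). The genes within 1.5-fold are Orc3 (chr4:34614943-34615062 on the minus strand) and Gins3 (chr8:95633439-95633558 on the plus strand). Each is written 5′ to 3′ on the strand of its gene, with E2F matches in capitals. The windows of Mcm5, Cdc6 and Mcm6 end 88, 75 and 16 bases before the start, and the other windows end at the base next to it.
Mcm5: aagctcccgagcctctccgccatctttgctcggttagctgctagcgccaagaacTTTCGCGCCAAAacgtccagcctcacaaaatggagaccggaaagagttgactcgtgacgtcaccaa
Mcm6: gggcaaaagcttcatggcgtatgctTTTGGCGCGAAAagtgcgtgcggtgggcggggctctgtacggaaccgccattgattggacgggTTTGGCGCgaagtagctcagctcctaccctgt
Cdc6: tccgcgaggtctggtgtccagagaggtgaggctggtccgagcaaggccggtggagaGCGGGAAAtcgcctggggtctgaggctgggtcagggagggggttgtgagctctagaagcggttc
Orc1: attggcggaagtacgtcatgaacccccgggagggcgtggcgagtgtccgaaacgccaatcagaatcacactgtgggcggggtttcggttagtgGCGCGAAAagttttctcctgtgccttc
Rfc3: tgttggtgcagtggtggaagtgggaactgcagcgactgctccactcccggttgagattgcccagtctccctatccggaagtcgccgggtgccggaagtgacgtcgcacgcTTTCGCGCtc
Orc3: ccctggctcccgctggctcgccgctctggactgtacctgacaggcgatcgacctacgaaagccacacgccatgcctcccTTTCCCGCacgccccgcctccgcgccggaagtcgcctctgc
Gins3: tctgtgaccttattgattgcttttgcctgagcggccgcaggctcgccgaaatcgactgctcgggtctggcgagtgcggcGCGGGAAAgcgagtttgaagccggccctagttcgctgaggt

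In Mcm5, matches on opposite strands overlapped and began 153 and 149 bases before the start. In Mcm6 there was a similar overlapping pair, 110 and 106 bases before the start, and a further match at 47 bases. Cdc6 held its match 138 bases before the start, Orc1 27 bases and Rfc3 10 bases before it. Orc3 and Gins3 held theirs at 41 bases, and these genes differed by 0.12 and 0.05. A match upstream of the start was therefore present in genes of either kind. Among measured genes of the list, 10 of 15 with a match and 13 of 27 without one were at least 1.5-fold lower, with medians of -0.65 and -0.58. Over detected genes, 31.8% of the 409 with a match and 23.2% of the 7978 without one were lower, with medians of -0.27 and -0.07. E2f1, Rrm2, Rpa3 and Cdc45 were among the genes lower by more than 2-fold whose promoter windows held no match.

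In the wider pathway, too, more genes were lower than higher. In 13 lists of further replication, repair and cell cycle genes, 57 of 140 detected genes were at least 1.5-fold lower and 10 were higher, 40.7% and 7.14%, against 23.6% and 17.0% of all detected genes, with a median of -0.42. Nucleotide supply had 9 of 13 detected genes lower and 1 higher. Mthfd1, of one-carbon metabolism, differed by -1.83, Cad, which starts pyrimidine synthesis, by -1.83, the nucleotide hydrolase gene Samhd1 by -1.79 and the thymidylate kinase gene Dtymk by -1.56. The NRF3 value of Cad, at 7.63, was dim. Tk2, the mitochondrial thymidine kinase, was higher by 1.57, in contrast to Tk1. It lies on chromosome 8, where the median difference of detected genes was 0.56.

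At the fork, 6 of 12 protection and alternative clamp loader genes were lower and 2 higher. Timeless, of the fork protection complex, differed by -1.77, with 8.05 in NRF3 cells and 9.82 in GFP cells. Chtf18 differed by -1.68, Wdhd1, which links the helicase to polymerase alpha, by -1.21 and the checkpoint clamp gene Rad9a by -1.20, but both values of Chtf18 were dim. Rad17, which loads that checkpoint clamp, was higher by 1.26. Of the chromatin assembly genes, 5 of 9 were lower and 1 higher, with Hells at -1.87, Uhrf1, which guides maintenance of DNA methylation, at -1.73, the histone chaperone gene Chaf1a at -1.10 and Asf1a at 1.02. Among nucleases, ligases and topoisomerases, 5 of 12 were lower and 2 higher, with Top2a at -1.91, Dna2 at -1.14 from dim values, Rnaseh2a at 1.18 and Lig4 at 1.10, whose GFP value was dim. Other polymerase genes had 6 of 13 lower and 1 higher, from Mad2l2 at -1.78 and Polq at -1.13 to Primpol at 0.70. The NRF3 value of Mad2l2, the GFP value of Primpol and both values of Polq were dim. Rnaseh2a, Lig4 and Primpol lie on chromosome 8. Other licensing and firing genes had 4 of 10 lower and 0 higher, between Donson at -0.99 and Mtbp at 0.44. The NRF3 values of Timeless, Hells, Donson and Primpol, though not dim, lay under the highest GC background row of that array, at 8.16.

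The repair lists gave unequal counts. Of 11 detected homologous recombination genes, 6 were lower and 0 higher, all 6 past 2-fold, with a median of -1.02. Rad51b lay at -1.77 with a dim NRF3 value, Xrcc3 at -1.23, Rad54l at -1.21, Bard1, the partner of BRCA1, at -1.14, also with a dim NRF3 value, and Mre11a at 0.19. Of 13 further Fanconi anaemia genes 3 were lower and 0 higher, between Ube2t, the E2 enzyme that works with FANCL, at -1.49 and Fancf at 0.07, with dim values of Ube2t in NRF3 cells and of Fancf on both arrays. End joining had 0 of 6 genes past 1.5-fold in either direction, between Nhej1 at -0.50, dim on both arrays, and Xrcc4 at 0.53, dim in GFP cells. Mismatch repair had 1 of 4 lower and 1 higher, Pms1 at -0.76 from dim values and Pms2 at 0.81. Checkpoint kinases and phosphatases had 2 of 8 lower and 0 higher, between Cdc25b at -1.53, dim in NRF3 cells, and Atr at 0.31, dim on both arrays. The lower shares of the Fanconi anaemia, mismatch repair and checkpoint lists were near the 23.6% of all detected genes, so these counts are no result about the lists. Whether the lists differ from each other was not tested.

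Among E2F, pocket protein and G1 cyclin genes, 8 of 21 were lower and 2 higher. The pocket protein genes Rbl1 and Rbl2, which encode p107 and p130, lay on opposite sides, at -1.05 and 1.51. Rbl2 lies on chromosome 8 and had values of 11.06 in NRF3 cells and 9.55 in GFP cells. The cyclin D gene Ccnd3 lay at -1.56 and Cdkn1a, which encodes a CDK inhibitor, at -1.14, on the same side as most replication genes. Of the genes that control destruction of licensing factors, 2 of 8 were lower and 0 higher, between the APC activator gene Fzr1 at -1.11 and Cul4a at 0.33, which is again a share near that of all detected genes. Mitotic genes were the most often lower of the lists examined, 12 of 14 with 0 higher and a median of -0.86, from Kif11 at -1.59, Aurkb at -1.55, Aurka at -1.27 and Cenpe at -1.20 to the S phase and G2 cyclin gene Ccna2 at 0.01.

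**Figure D4:**
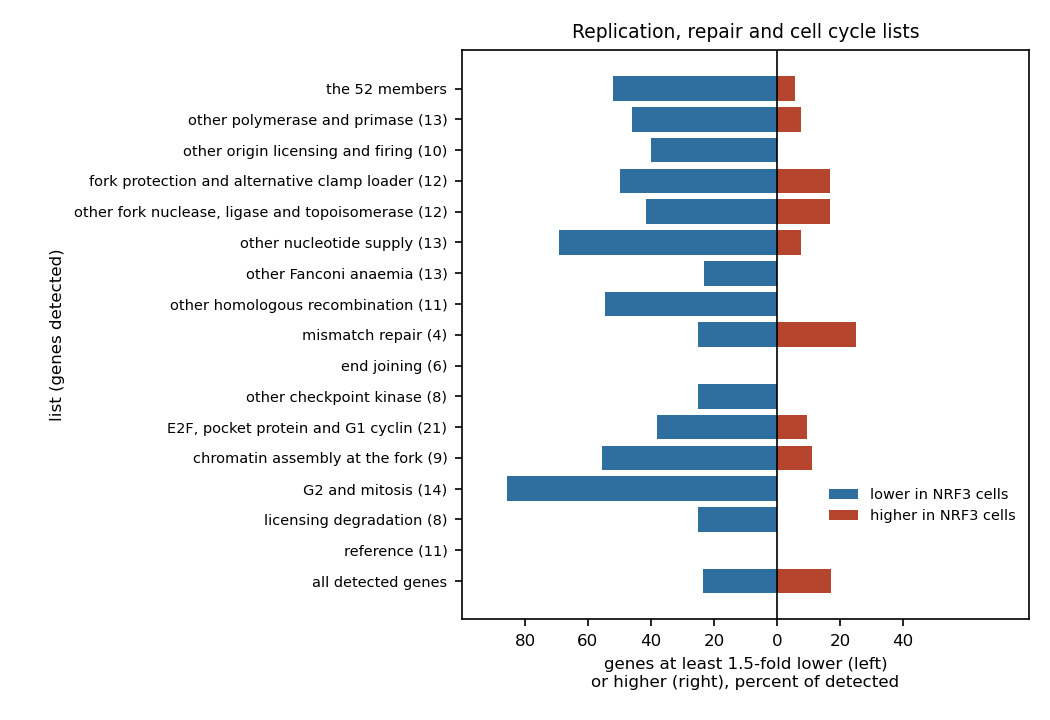
Share of detected genes at least 1.5-fold lower (left of 0) or higher (right of 0) in NRF3 cells, in percent, for the 52 genes, for the further lists (detected genes in brackets) and for all detected genes, at the bottom. Mitotic genes have the largest lower share of these lists, 12 of 14, and the reference and end joining lists have none in either direction.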

How the data were processed

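Total RNA of 2 samples, 1 of NRF3 cells and 1 of GFP cells, was measured on single-colour Affymetrix arrays after labelling from 100.0 ng, per the labels' protocols. The deposited log2 values, 1 per probe set, were made by the authors with Affymetrix Expression Console and RMA, per the submitters' processing notes, with version, settings and genome build not given in the sources used here. The number of arrays limits the precision.

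Of 28846 rows, 19572 carried a single gene symbol in the platform annotation, and 9274, controls included, carried none and are unnamed here. The probe set with the highest mean was kept for the 55 genes with several. All symbols were equal to those of RefSeq (GRCm38.p6), which gave chromosomes and gene order. Differences were NRF3 minus GFP, counted by size (1.5-fold) with no test. A gene was detected when its brighter value reached 5.89.

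The members, lists, motifs and size rules were chosen with earlier results of these data known. All 52 measured members are accounted for; of each further list, the highest and lowest detected gene and up to 4 past 2-fold each way are named. A value was called dim when it lay below the upper quartile of the 5222 negative control rows on its array. The comparison with the GC background rows was added after the data were examined. Counting was tested on simulated data. Python 3.11.15, pandas 2.3.3 and statsmodels 0.14.6 were used.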

Additional observations from a re-analysis of the deposited data

How the results depend on the processing

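No paired analysis was possible because each group has 1 array. The count of genes at least 1.5-fold lower, 27 of 52, ranged from 21 to 28 under median centring, quantile normalization, subtraction of a lowess trend (span 0.3), the floors at the median and the 75th percentile, the mean over probe sets, subtraction of chromosome or neighbour medians, omission of chromosomes 1 and 8, and restriction to values above all GC background rows. The low end comes from fewer genes, 21 of 38 at the 75th percentile floor, 21 of 42 above the GC background rows and 22 of 41 without chromosomes 1 and 8, with no call lost among the genes kept; the 3 scalings gave 22 to 23 of 52. The count was 34 under a looser rule of size and 16 at 2-fold. Of these alternatives, only the 2-fold rule has a matching share over all detected genes above. The median difference of the list ranged from -0.66 to -0.49 under the same alternatives. The count of higher genes, 3, was 4 under each of the 3 scalings and 2 at the 75th percentile floor. It was 1 with chromosomes 1 and 8 left out, 1 at 2-fold and 5 under the looser rule. Subtraction of chromosome or neighbour medians also gave 3, with Orc4 in place of Orc6. Quantile normalization moved the median of all detected genes by 0.10, and median centring and the trend by 0.07 each. Under these 3 scalings Brca2, Fanca and Pold1 were no longer past 1.5-fold and Orc4 was. The E2F share of the promoters was 30.2% in the shorter window, from 200 bases before the start, too. With 1 array per group the spread between cultures is unknown, and genes near the control rows have differences that may depend on background.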

Other observations

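The genes of the further lists that were higher in NRF3 cells lay mostly on chromosome 8. Of the 10 genes at least 1.5-fold higher among the 140, 7 lie there, namely Tk2, Rbl2, Rnaseh2a, Lig4, E2f4, Primpol and Chtf8, and the other 3 are Rad17, Asf1a and Pms2. The lists hold 10 detected genes on chromosome 8 in all, of which 0 were 1.5-fold lower, where 47.5% of all detected genes of that chromosome were higher and 9.29% lower. E2f4, which encodes an E2F factor that acts mainly with pocket proteins as a repressor, lay at 8.84 in NRF3 cells and 7.94 in GFP cells. Its partner gene Rbl2 lies on the same chromosome. Of 9 detected genes on chromosome 1, 5 were lower, among them Dtymk, Ube2t and Bard1, close to the 44.2% of all detected genes of that chromosome. The NRF3 values of Ube2t and Bard1 and the GFP values of Lig4 and Primpol were dim. The genes of this paragraph were counted after their values were seen, and the part of the chromosomes in these values was not tested.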
